A study of Homo sapiens with 2 samples.

Results

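Transcription inside a gene can start at places other than the annotated outer end. The 653 called start positions described here lie deep inside protein-coding genes, run in the direction of the gene and have no call on the opposite strand just upstream. They make up 2.48% of 26332 calls on the autosomes and chromosome X. The assay was PRO-cap, in which nuclei extend their RNAs with biotin-labelled nucleotides and the capped 5' ends of the new RNA are sequenced. It was run on wild-type HUDEP-2, a human erythroid progenitor cell line, in 1 group of 2 replicates with no treatment and no second cell type. The 2 deposited lists, 1 per strand, name no replicate and give each call a score of 0. The depth and level of a call and its spread between replicates are thus unknown. Each interval in this text is the 95% Wilson interval of a share and holds only its counting error.

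The members were chosen from positions alone. A protein-coding gene was given a direction when exactly 1 of its outer ends in RefSeq had a call within 500 bp that pointed into the gene. This held for 8072 of 19821 genes, called directed genes here, while 135 with both ends called and 11614 with none were left out. A member is a call in the direction of its gene, inside exactly 1 directed gene, over 1000 bp from the end of every annotated gene, with no opposite-strand call 0 to 300 bp upstream. Such calls lay in 531 genes (6.58% of the directed genes); 325 ran forward and 328 reverse. The same rule with the strand turned gave 857 antisense calls in 676 genes, which serve as the comparison, and 319 sense calls as deep in genes had an upstream partner. The annotated strand of 6769 directed genes was given in a table of RefSeq starts and equalled the called direction in 98.6% of them. Of the members, 536 lay in genes of the same annotated strand, 103 in genes without an entry and 14 in genes annotated the other way, so that the last 14 run antisense to the annotation.

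Many human genes have more than 1 promoter, and a promoter inside the gene gives a transcript with another first exon and sometimes a shorter protein. In blood cells such internal promoters are known for regulators such as GATA2 and RUNX1 and for enzymes of haem synthesis. Active promoters commonly fire in both directions, giving a divergent pair of starts. A start call in an intron can also belong to an enhancer, which is often transcribed on both strands. The erythroid label fitted the called starts: all 9 erythroid markers, among them GATA1, KLF1, ALAS2, HBB, AHSP and EPOR, had a call at an outer end that pointed inward. This held for 1 of 5 megakaryocyte markers, ITGA2B, and for 0 of 5 myeloid and 0 of 4 lymphoid markers.

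Sequence was at hand where a member fell inside a RefSeq start window, 250 bases before to 50 after an annotated start of GRCh38.p14. The first set is shown because the genes are regulators that the results below return to. These are STAT5B, which carries erythropoietin signals to the nucleus, TET3, which oxidises methylated DNA, CDKN2A, which encodes the cell cycle inhibitor p16, and CFLAR, an inhibitor of caspase-8. Each sequence runs 5' to 3' on the strand of the call, from 60 bases upstream of the called base, and capitals mark the called base and the base after it.
STAT5B (chr17:42276367-42276436, reverse strand): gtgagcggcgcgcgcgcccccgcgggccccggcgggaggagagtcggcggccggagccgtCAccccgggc
TET3 (chr2:73984851-73984920, forward strand): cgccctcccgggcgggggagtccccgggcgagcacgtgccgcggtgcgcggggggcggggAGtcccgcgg
CDKN2A (chr9:21974829-21974898, reverse strand): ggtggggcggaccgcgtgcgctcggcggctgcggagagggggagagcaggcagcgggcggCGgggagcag
CFLAR (chr2:201118630-201118699, forward strand): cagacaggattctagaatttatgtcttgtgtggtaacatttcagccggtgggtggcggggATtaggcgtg

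The second set is shown because each call lay 1 base upstream of an annotated internal start, so that the annotated start is the second capital. UBA1 encodes the main ubiquitin-activating enzyme, SLC3A2 the heavy chain of amino acid transporters, NFYC a subunit of the CCAAT-binding factor NF-Y, MGA a partner of MAX, UNC45A a myosin chaperone and MSN the membrane linker moesin.
UBA1 (chrX:47193768-47193837, forward strand): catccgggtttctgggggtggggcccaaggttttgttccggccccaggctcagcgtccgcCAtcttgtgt
SLC3A2 (chr11:62880835-62880904, forward strand): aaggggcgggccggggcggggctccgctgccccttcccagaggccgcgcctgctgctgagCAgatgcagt
NFYC (chr1:40709305-40709374, forward strand): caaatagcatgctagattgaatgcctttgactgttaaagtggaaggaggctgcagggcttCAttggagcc
MGA (chr15:41660686-41660755, forward strand): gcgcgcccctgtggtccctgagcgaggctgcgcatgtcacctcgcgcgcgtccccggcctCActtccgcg
UNC45A (chr15:90935224-90935293, forward strand): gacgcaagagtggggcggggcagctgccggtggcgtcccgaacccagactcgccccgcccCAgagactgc
MSN (chrX:65667593-65667662, forward strand): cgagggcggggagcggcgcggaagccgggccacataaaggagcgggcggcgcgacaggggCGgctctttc

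The third set holds the 2 printed members with TATAA 35 to 20 bases upstream, which is in capitals too. MIDN encodes midnolin, which brings nuclear proteins to the proteasome.
MIDN (chr19:1249827-1249896, forward strand): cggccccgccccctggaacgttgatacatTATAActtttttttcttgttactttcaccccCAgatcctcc
FAM110A (chr20:844580-844649, forward strand): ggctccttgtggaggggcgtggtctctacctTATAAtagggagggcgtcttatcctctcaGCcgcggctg

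Part of the members sat on annotated internal starts. The table of RefSeq starts held 1062 starts of directed genes that lay over 1000 bp from every gene end, in 765 genes. A member lay within 100 bp of 99 of these starts (9.32%), and a divergently paired sense call within 100 bp of 79 (7.44%). Counted over calls, 93 of 653 members (14.2%, 11.8 to 17.1) in 90 genes lay within 100 bp of an annotated start of their gene, against 21 of 857 antisense calls (2.45%, 1.61 to 3.72). The antisense value is no yardstick for the members: these starts belong to the members' own strand, and the rule removes an antisense call that diverges from a called sense start. Members stood on annotated starts less often than the divergently paired sense calls, of which 75 of 319 did (23.5%, 19.2 to 28.5; odds ratio 0.54, two-sided Fisher's exact test, p = 0.000703 after Benjamini-Hochberg adjustment over 15 tests). Among the 247 members whose gene has an annotated internal start, 93 (37.7%, 31.8 to 43.8) lay within 100 bp of one. The other 560 members had no annotated start of the gene within that distance in this table, which is not complete and holds none for chromosome 8.

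**Figure D1:**
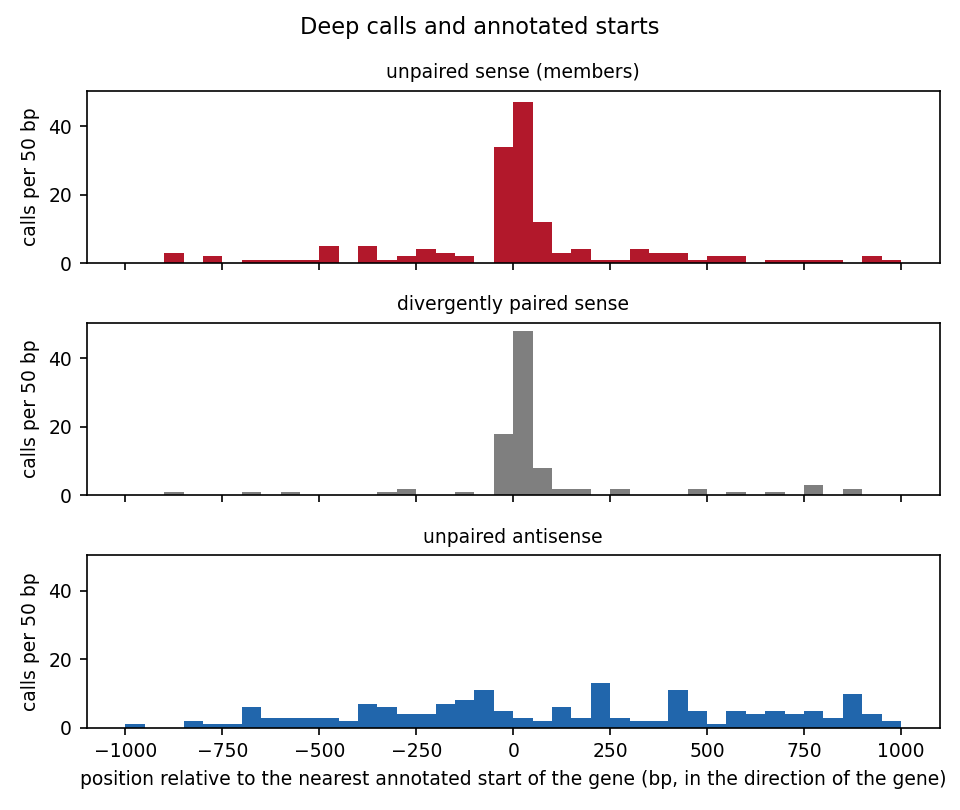
Number of deep calls per 50 bp (vertical axis) by position relative to the nearest annotated start of the gene (horizontal axis, bp in the direction of the gene), for members, divergently paired sense calls and unpaired antisense calls. Sense calls of both kinds pile up at the start, 93 members and 75 paired calls within 100 bp, whereas antisense calls, 21 within that distance, are spread over the window, where the rule also removes those that diverge from a called start; all panels share 1 vertical scale.

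The match was close in position. Of the 93 members near an annotated start, 42 lay within 10 bp of it and 25 within 1 bp, and the median position was 10 bp downstream. The most frequent single position was 1 base upstream, with 19 members, 11 of them forward and 8 reverse. STAT5B had its only member 15 bp downstream of an internal start, 11994 bp into the gene, at position 42276376 of chromosome 17 (hg38). CDKN2A had one 19 bp downstream of an internal start, 20.5 kb into the gene at 21974838 of chromosome 9, and a further member at 21990066. The member of TET3 at 73984911 of chromosome 2 lay 1 bp downstream of an internal start and 1.28 kb into the gene. CANX, which encodes the chaperone calnexin, and LDHA, lactate dehydrogenase A, had single members 9 and 28 bp downstream of internal starts. JAK1, the kinase of cytokine receptors, had one 29 bp downstream of an internal start, 101226 bp into the gene. DGLUCY held 3 members within 595 bp, of which 1 lay 6 bp upstream of an internal start and another 26 bp downstream of one.

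Where sequence could be read, the bases at the called position were most often those of an initiator, shifted by 1 base. The initiator is the short element at which RNA polymerase II starts. An initiator has a pyrimidine before the start and a purine at it, that is CA, CG, TA or TG. In the 81 members with sequence around the call, the called base and the next formed such a step in 48 (59.3%, 48.4 to 69.3), and the base before and the called base in 17 (21%, 13.5 to 31.1). The step CA alone made up 43 of the 48. Forward members had the step in 28 of 45 cases (62.2%) and reverse members in 20 of 36 (55.6%). At the called outer starts of directed genes the figures were 2514 of 5307 (47.4%, 46.0 to 48.7) for the called base and the next and 1605 of 5307 (30.2%) for the base before and the called base. The divergently paired sense calls gave 28 of 63 (44.4%, 32.8 to 56.7). On both strands the deposited coordinate was therefore most often the base just before the purine of the step, and positions here are printed as deposited.

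The 60 bases upstream of the call were rich in G and C, with a median of 70.0% for the 81 members and 70.0% for the 5307 gene starts. Only calls inside RefSeq start windows could be read, so that these values say nothing of members outside them. TATAA lay 35 to 20 bases upstream of 2 of 81 members (2.47%, 0.68 to 8.56) and of 145 of 5307 gene starts (2.73%). Over whole start windows of 300 bases and both strands, GGGCGG, read by SP factors, was in 61 of 91 windows with a member (67.0%, 56.9 to 75.8), 4193 of 5563 with a called gene start (75.4%) and 15743 of all 34961 windows (45.0%). CCGGAAG, read by ETS factors, was in 8 of the 91 (8.79%, 4.52 to 16.4), in 1433 of the 5563 (25.8%) and in 10.3% of all windows. AGATAA, read by GATA factors, was in 7 (7.69%, 3.78 to 15.0), against 3.99% for called gene starts and 10.3% of all windows. CCAAT was in 30 of the 91 windows (33.0%), against 39.7% for called gene starts and 34.6% of all windows. CCACCC was in 39 (42.9%), against 35.6% and 34.3%. Of the 67 windows with a divergently paired sense call, 12 held CCGGAAG (17.9%, 10.6 to 28.7), an interval that overlaps that of the members. In the same 67 windows GGGCGG stood at 70.1%, AGATAA at 5.97%, CCAAT at 31.3% and CCACCC at 37.3%. These shares are descriptions and were not tested.

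Deep calls without a partner ran with the gene less often than against it, and this difference lay near the start. Of all 1510 unpaired deep calls in directed genes, 653 were sense (43.2%, 40.8 to 45.8; two-sided exact binomial test for equal shares, adjusted p = 4.2e-07). Over genes, 364 held more sense than antisense calls and 521 fewer, while 116 held equal numbers (exact binomial test, adjusted p = 4.2e-07). Between 1 and 2 kb from the called end there were 105 sense and 264 antisense calls, a sense share of 28.5% (24.1 to 33.3; exact binomial test, p = 3.19e-16 adjusted over 5 distance classes). From 2 to 5 kb the numbers were 90 and 141 (39.0%, exact binomial test, adjusted p = 0.0024). From 5 to 10 kb they were 64 and 80 (44.4%, exact binomial test, adjusted p = 0.352). Beyond 10 kb they were 394 and 372 (51.4%, 47.9 to 55.0; exact binomial test, adjusted p = 0.56). With a deep limit of 2000 bp in place of 1000 the sense share was 48.3% and no longer passed (exact binomial test, p = 0.279). That share pools calls nearer the called end with those beyond 10 kb. Divergently paired deep calls numbered 319 sense and 305 antisense (51.1%, 47.2 to 55.0; exact binomial test, adjusted p = 0.646). Pairing is mutual, so that a pair with both calls deep in the gene adds 1 sense and 1 antisense call. Nearly equal shares are thus set by the rule, and the test cannot show a strand preference. The difference of paired from unpaired calls was not tested.

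**Figure D2:**
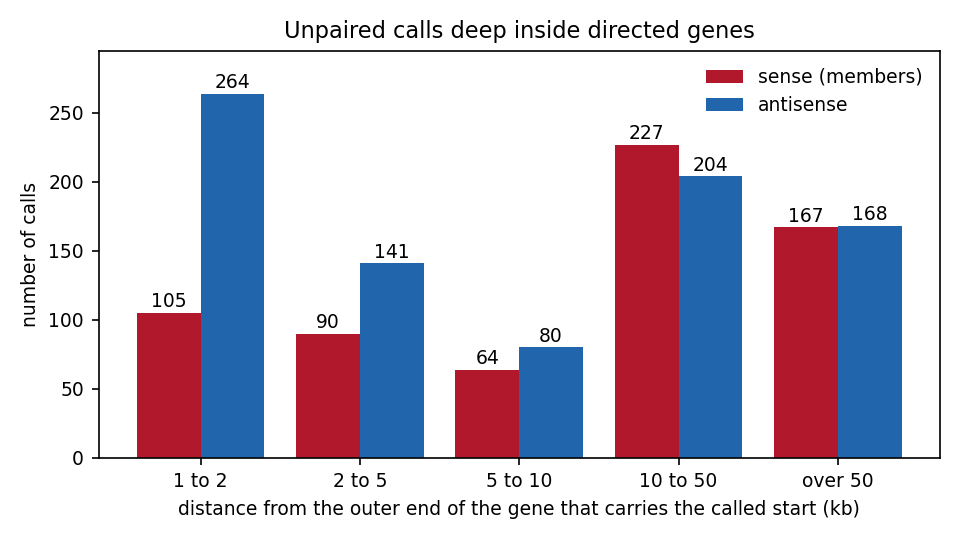
Number of unpaired deep calls (vertical axis) by distance from the outer gene end that carries the called start (horizontal axis, kb), for sense calls, which are the members, and antisense calls. From 1 to 2 kb there were 105 sense and 264 antisense calls, and from 10 to 50 kb 227 and 204.

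Members therefore lay farther into genes than antisense calls did. Their median distance from the called end was 17.0 kb (quartiles 3.8 and 53.8 kb), against 6.32 kb (1.67 and 35.7 kb) for antisense calls and 9.9 kb for divergently paired sense calls. Within 10 kb of the called end lay 259 members (39.7%, 36.0 to 43.5) and 485 antisense calls (56.6%, 53.3 to 59.9; Fisher's exact test, two-sided, adjusted p = 2.86e-10). Nearer the called end than the far end of the gene lay 441 members (67.5%) and 662 antisense calls (77.2%; Fisher's exact test, adjusted p = 6.73e-05). Beyond 2000 bp from gene ends this difference no longer passed (64.5% and 68.0%, Fisher's exact test, p = 0.239). Divergently paired sense calls were within 10 kb in 50.2% of cases (Fisher's exact test against members, adjusted p = 0.00357). Nearer the called end than the far end lay 69.6% of them, a difference from the members' 67.5% that did not pass (Fisher's exact test, adjusted p = 0.643). The farthest member lay in ARHGAP15, which encodes a regulator of small GTPases, 565 kb from its called end, followed by MAGI1 with 489 kb, ARHGAP26 with 438 kb, CAMKMT with 408 kb and TBC1D5 with 402 kb.

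Gene bodies behind a called start held more unpaired calls, on either strand, than those of genes with no called end. Directed genes had 1.56 members per Mb over 419 Mb of deep gene body. Protein-coding genes without a called end had 1545 unpaired deep calls over 748 Mb, which is 1.03 per Mb and strand. The ratio of 1.51 passed the exact binomial test (two-sided, adjusted p = 9.9e-17). Antisense calls in directed genes came to 2.04 per Mb, a ratio of 1.98 to the same rate (exact binomial test, unadjusted p = 1.82e-53), so that the excess was not particular to the members.

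The limits of the rule cut through a continuous range of positions. Within 100 bp beyond the limit of 1000 bp from a gene end lay 27 members, the nearest at 1004 bp, against 37 unpaired sense calls within 100 bp on the other side of it, the farthest at 998 bp. For the partner, 37 members had an opposite-strand call at most 100 bp beyond the limit of 300 bp upstream, the closest at 303 bp, against 104 paired sense calls with one in the last 100 bp before it, the farthest at 298 bp. In all, 105 members (16.1%, 13.5 to 19.1) had an opposite-strand call between this limit and 1000 bp upstream, against 94 antisense calls (11.0%, 9.05 to 13.2). LDHA with 325 bp, MIDN with 328 bp, ZBTB7A with 331 bp, GATAD2A with 353 bp and CANX with 377 bp are examples.

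The distance to the nearest other calls is fixed in part by the rule, which leaves out calls with a close upstream partner and calls near gene ends. Under it no other call of either strand lay within 1000 bp of 409 members (62.6%, 58.9 to 66.3) and of 477 antisense calls (55.7%, 52.3 to 59.0). Another call of the same strand lay within 1000 bp of 143 members (21.9%, 18.9 to 25.2) and 268 antisense calls (31.3%, 28.3 to 34.5; Fisher's exact test, two-sided, adjusted p = 0.000103). An opposite-strand call 1 to 300 bp downstream, the convergent arrangement, was found for 49 members (7.5%, 5.72 to 9.78) and 63 antisense calls (7.35%, 5.79 to 9.3; odds ratio 1.02, adjusted p = 0.921, Fisher's exact test). The arrangement is mutual, so that a member and an antisense call that face each other count in both classes. The classes thus share calls, and the test does not compare independent sets. The facing call can also be a paired call or one near a gene end, so that equal counts are not forced. The nearest opposite-strand call downstream lay 301 to 1000 bp away for 60 members (9.19%, 7.21 to 11.6) and 158 antisense calls (18.4%, 16 to 21.2). That difference was not tested. Calls of 1 strand are at least 251 bp apart in the deposited lists. Members spaced at most 1000 bp formed 30 runs with 62 calls, of which 28 were pairs. The 2 runs of 3 lay in CFLAR, over 932 bp from position 201125506 to 201126438 of chromosome 2, and in DGLUCY, a mitochondrial D-glutamate cyclase, over 595 bp. The widest pairs were in ZDHHC2, MIDN, SLC22A23 and CCR10, spanning 953, 931, 859 and 765 bp.

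Members were spread thinly over genes. Of the 8072 directed genes, 531 held a member (6.58%, 6.06 to 7.14). Of these, 443 held 1, 65 held 2, 15 held 3, 6 held 4, 1 held 5 and 1 held 6. The share grew with gene length, from 15 of 780 genes up to 5 kb (1.92%) over 135 of 2385 genes of 20 to 50 kb (5.66%, 4.8 to 6.66) to 191 of 1213 genes over 100 kb (15.7%, 13.8 to 17.9). The median length was 69.3 kb for genes with a member and 28.8 kb for all directed genes. The share with an antisense call also grew, to 18.6% of genes over 100 kb. A longer gene has more positions over 1000 bp from its ends, so that growth of both shares is in part set by the rule. Rates per length were not compared between the length classes.

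**Figure D3:**
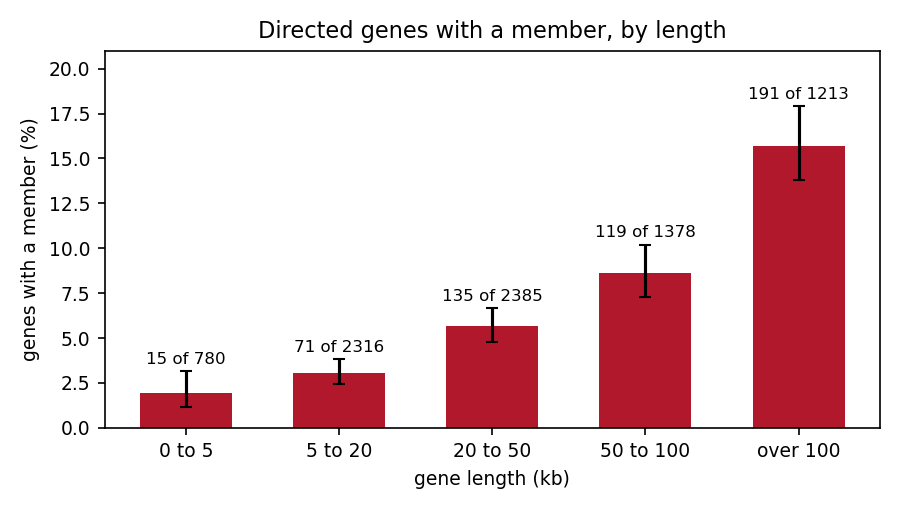
Share of directed genes with at least 1 member (vertical axis, %, with 95% Wilson intervals) by gene length (horizontal axis, kb), with the genes with a member and all genes of the class above each bar. The share is 1.92% up to 5 kb and 15.7% over 100 kb. Longer genes offer the rule more positions, and the shares are not corrected for this.

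RREB1, a zinc finger transcription factor that answers to RAS signalling, held the most, with 6 members in 144 kb. They lay 2.0, 30.1, 32.2, 38.7, 91.5 and 131 kb from the called start, and 4 antisense and 2 divergently paired sense calls lay among them. The member of RREB1 at 7146428 of chromosome 6 faced an antisense call 21 bp downstream. CFLAR held 5 members, 2 of them at 2.53 and 2.86 kb and the run of 3 at 9.34 to 10.3 kb, and 1 antisense call. The first of these lay 26 bp upstream of an annotated start, and the run lay 2527 to 3459 bp upstream of the next one. MIDN, only 10.6 kb long, held 4 members at 1.3, 1.56, 4.02 and 4.95 kb, of which the first stood 1 base from an annotated start.

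Other genes with most members differed in where the calls lay. EEFSEC, the elongation factor for selenocysteine, held 4 members bunched 256 to 263 kb into its 273 kb. NFATC1, a calcium-dependent transcription factor with a known internal promoter, held 1 at 3.58 kb, 788 bp upstream of an annotated start, and 3 at 108 to 114 kb, with no antisense call. TNS3, a focal adhesion protein, had 4 members from 10.7 to 181 kb, STK10, a kinase of cytoskeletal linkers, 4 from 12.8 to 73.2 kb, and PLEC, the cytoskeletal linker plectin, 4 from 3.21 to 37.1 kb. UNC45A, LMO2 and SH3GL1, an endophilin, held 3 each. UNC45A held neither an antisense nor a paired sense call. EEFSEC, NFATC1 and SH3GL1 held no antisense call but 1, 2 and 1 paired sense calls.

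**Figure D4:**
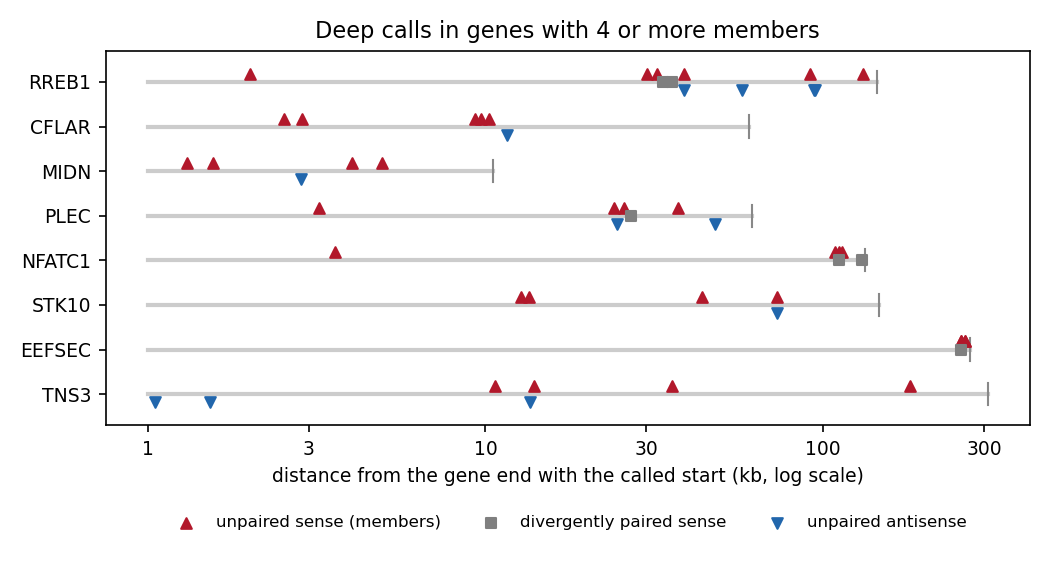
Deep calls in the genes with 4 or more members, by distance from the called gene end (horizontal axis, kb, log scale), with 1 gene per row, the gene as a grey line up to its far end, triangles up for members, squares for divergently paired sense calls and triangles down for antisense calls. The members are scattered in RREB1 and TNS3 and bunched near the far end in EEFSEC.

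Erythroid transcription factors had the highest share among the lists. Of the 20 directed genes of this list 10 had a member (50%, 29.9 to 70.1), against 6.58% of all directed genes, and 12 had an antisense call, against 8.37% of all directed genes. The median length of the 20 was 35.9 kb, and of all directed genes of 20 to 50 kb 5.66% had a member. LMO2, which bridges GATA1 and TAL1, held members at 6.7, 10.1 and 21.5 kb. RUNX1, a regulator of blood stem cells, held one at 22.4 kb and a pair 378 bp apart at 159919 and 159541 bp, which lay 684 and 1062 bp upstream of an annotated start. At RUNX1 this start carried its own divergently paired sense call at 34888694 of chromosome 21. SOX6, a repressor of embryonic globin, held a pair at 132 and 133 kb and 1 call at 356 kb of its 772 kb.

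GATA2, which acts before GATA1 in progenitors, held 2 members in 13.8 kb, at 128490580 and 128487931 of chromosome 3, the second 599 bp downstream of an internal annotated start. KLF3, a repressor bound by GATA1 and KLF1, held 2 at 3.25 and 9.16 kb, and NFIX 2 at 16.7 and 101 kb. MYB, E2F2, STAT5B and ZBTB7A held 1 each. The member of MYB lay 2.69 kb into the gene, and that of ZBTB7A, a repressor of fetal globin, 1008 bp into the gene and 362 bp upstream of an annotated start.

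In erythroid signalling 6 of 23 directed genes had a member (26.1%, 12.5 to 46.5), with 1 each in KIT, the stem cell factor receptor, LYN, BMPR2, IGF1R, SOCS2 and PTPN6. The median length of the 23 was 86.1 kb, and of all directed genes of 50 to 100 kb 8.64% had a member. KIT held its member at 54660019 of chromosome 4, 2.06 kb from the called start, and the nearest upstream opposite-strand call was 595422 bp away. That of PTPN6 ran against the annotated strand of the gene. Of membrane and blood group genes 5 of 27 (18.5%, 8.18 to 36.7) had one, namely ABCC4 with 2, and SPTB, which encodes beta spectrin, GYPC, which encodes glycophorin C, STOM, stomatin, and SLC2A1, the glucose transporter, with 1 each. SPTB held it 1205 bp from the called start and GYPC 18.2 kb in. The median length of the 27 was 34.7 kb, and of all directed genes of 20 to 50 kb 5.66% had a member.

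Haem and iron genes had members in 2 of 23 (8.7%, 2.42 to 26.8), ABCB10 and TFRC, against 6.58% of all directed genes. The median length of the 23 was 18 kb, and of all directed genes of 5 to 20 kb 3.07% had a member. ABCB10, a mitochondrial transporter of erythroid cells, held 2 at 1.82 and 3.77 kb amid 3 antisense calls, and TFRC, the transferrin receptor, 1 at 3.09 kb. Of maturation genes 2 of 21 had one (9.52%, 2.65 to 28.9), again against 6.58%. They were BNIP3L, which clears mitochondria, with 2 at 8.29 and 9.56 kb, and HBS1L. The median length of the 21 was 43.2 kb, and of all directed genes of 20 to 50 kb 5.66% had a member. Of chromatin and fetal globin regulators 5 of 32 (15.6%) had one. TET3 held 3, GATAD2A, a NuRD subunit, IGF2BP1 and POGZ 1 each, and KMT2D 1 that ran against its annotated strand. The median length of the 32 was 62.9 kb, and of all directed genes of 50 to 100 kb 8.64% had a member.

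Of ribosomal protein genes 1 of 68 (1.47%, 0.26 to 7.87) had a member, RPL6 with 2, at a median length of 4.91 kb. Of all directed genes up to 5 kb 1.92% had one. Abundant housekeeping genes had 2 of 35 (5.71%), CANX and LDHA. The median length of the 35 was 7.71 kb, and of all directed genes of 5 to 20 kb 3.07% had a member. Replication and mitosis genes had 0 of 28, which allows a share of up to 10.7% by the limit of 3 counts (Wilson upper limit 12.1%). Splicing and RNA genes had 0 of 25, which allows up to 12% by the same limit (Wilson 13.3%), and the median lengths of both lists were 21.8 and 24.9 kb. Only 2 of the markers of other lineages were directed, and neither held a member. Antisense calls were found in 5 of the 23 signalling genes, 9 of the 27 membrane genes, 9 of the 32 chromatin genes, 7 of the 23 haem and iron genes and 3 of the 21 maturation genes. In the last 4 of these lists they were in more genes than members were. All of these list counts are descriptions, to be read beside the 6.58% of all directed genes, and no list was tested. The lists differ in gene length, with which the share grew.

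**Figure D5:**
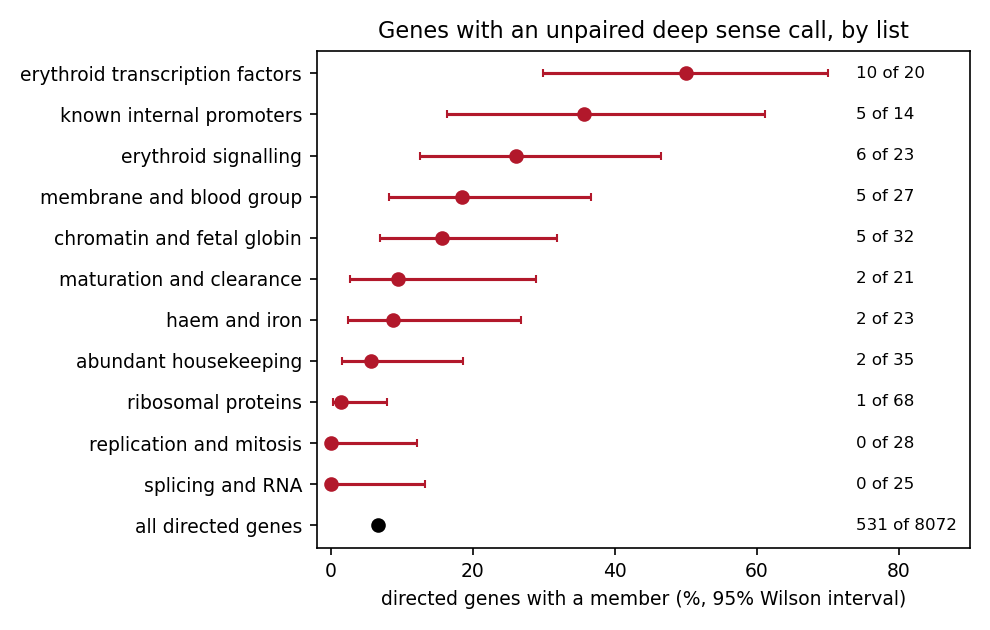
Share of directed genes with at least 1 member (horizontal axis, %, with 95% Wilson intervals) for each gene list, with all directed genes at the bottom and the numbers at the right. Erythroid transcription factors stand at 50% and ribosomal proteins at 1.47%, against 6.58% for all directed genes. The shares are not corrected for gene length, which differs between the lists.

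Genes listed for known internal promoters had a member in 5 of 14 directed cases (35.7%, 16.3 to 61.2), against 6.58% of all directed genes. The median length of the 14 was 35.9 kb, and of all directed genes of 20 to 50 kb 5.66% had a member. An antisense call lay in 4 of the 14, against 8.37% of all directed genes. The genes with a member were NFATC1, LMO2, RUNX1, GATA2 and KIT, all of which but NFATC1 also count in the erythroid lists above. Whether their members stand at the known promoters was not tested. CREM, EPB41, MITF, PKLR, RASSF1, SLC4A1 and UROS were among the directed genes that held none. A start within 1000 bp of any gene end, or one with a partner, could not be counted for them.

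Overlap with further genes was limited by the rule, which leaves out calls near the end of any gene and calls inside more than 1 directed gene. Inside another annotated gene lay 42 members (6.43%, 4.79 to 8.58) and 46 antisense calls (5.37%, 4.05 to 7.09), a difference that did not pass (odds ratio 1.21, adjusted p = 0.56, Fisher's exact test). Of the genes that overlapped members, 26 counts were of lncRNA genes, such as GATA2-AS1 at the member of GATA2 at 128490580, and 16 of protein-coding genes without a single called end, such as KDM6B.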

How the data were processed

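Nuclear RNA of 2 replicates was biotin-labelled in run-on reactions, captured on beads and sequenced, per the labels' protocols. Build hg38 and the tools deepTools 3.5.4, SAMtools 1.17, Picard and BWA 0.7.16a come from the submitters' processing notes. For the caller, its threshold and the pooling of replicates the sources used here give nothing. The authors deposited 1-base positions of calls, which are other values than measurements, and a score, which is 0 for all 26395 calls. The 63 calls outside chromosomes 1 to 22 and X were left out.

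Genes were the 58419 RefSeq entries of GRCh38.p14 on these chromosomes, after 679 entries on other scaffolds were removed. Annotated starts, strands and sequences came from RefSeq windows of the same build, and starts of chromosome 8 were not used here. No genome sequence or exon annotation was used, so that the planned exon, splice site and CpG summaries were not run. Positions in a gene are counted from its outer end with the called start.

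Exact binomial and Fisher's exact tests (SciPy 1.17.1, Python 3.11.15) were two-sided at 0.05, with Benjamini-Hochberg adjustment over 15 tests. They take calls as the unit, and calls of 1 gene can be linked. They describe this call set and hold no replicate error. The position rule was tested on simulated data, which checks its coding and not the calls.

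The members and the 12 lists with 447 entries were chosen with earlier results of these data known. The rule named the 12 genes with most members, the 6 longest runs, the 5 farthest members and up to 5 genes with a member per list, of which a few are not reported here. The other genes, among them those with printed sequence, were chosen after their values were seen. The comparison with annotated starts was added after the start table was seen.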

Additional observations from a re-analysis of the deposited data

Results flagged for a closer look

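Protein-coding genes with inward calls at both ends have no direction by the rule and were left out. They held 26 unpaired deep calls, which enter no comparison. No rate per length was set against directed genes, and nothing about these genes is read from the count.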

How the results depend on the processing

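The choices tried were end windows of 200 and 1000 bp, deep limits of 2000 and 5000 bp, partner windows of 150 and 500 bp, coding gene ends alone, calls inside no other gene, the annotated strand, 1 call per run and leaving out the 12 genes with most members. Over them the number of members ran from 370 to 827, with 370 at the limit of 5000 bp. The sense share kept its side in 9 settings (41.9% to 44.9%), fell short at 2000 bp (48.3%) and lay on the other side of equal shares at 5000 bp (51.3%, exact binomial test, p = 0.503). At 2000 and 5000 bp the share of members nearer the called than the far end (64.5% and 61.9%) no longer passed. At 5000 bp neither did the share within 10 kb (12.7%) or with a same-strand call within 1000 bp (14.9%). The share inside another gene passed with ends of protein-coding genes only (13.5% against 9.98% of antisense calls, Fisher's exact test, p = 0.0286). Genes with a member were 5.08% at 2000 bp, 3.77% at 5000 bp, 7.66% with ends of protein-coding genes only and 7.98% with a partner window of 150 bp. The ratio to genes without a called end (1.41 to 1.7) passed in all settings run. The share at annotated starts ran from 12.4%, with a window of 50 bp around the start in place of 100, to 17.7%, with the annotated strand. That ratio was not run for calls inside no other gene, single calls per run or without the 12 genes, and the same-strand share has no meaning with 1 call per run. No paired analysis was possible because the calls carry no replicate. Depth per call is unknown, so that a gene without a member can hold starts below the calling threshold.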

Other observations

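Some members lay upstream of microRNA genes of the same strand inside the same host gene. This held for 8 of 653 members within 10 kb (1.23%, 0.622 to 2.4), against 6 of 319 divergently paired sense calls (1.88%, 0.865 to 4.04) and 1 of 857 antisense calls (0.117%, 0.0206 to 0.658), counting microRNAs on the strand of the call. For antisense calls these are microRNAs that run against the called direction of the gene, another set, so that their share is no yardstick for the members. These shares were not tested. The nearest were the member of PPARGC1B at 149731756 of chromosome 5, 1069 bp upstream of MIR378A, and that of HBS1L at 134980965 of chromosome 6, 1533 bp upstream of MIR3662. The member of SREBF1, the sterol-response transcription factor, lay 9673 bp upstream of MIR33B. Since every gene end within 1000 bp excluded a call, microRNA starts closer than that could not be among them.

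At HUWE1, a ubiquitin ligase gene on chromosome X, 2 members at 53684148 and 53683846 lay 12 bp and 1 bp upstream of separate annotated starts. MGA held 3 members between 39.2 and 40.8 kb, of which 2 lay within 100 bp of annotated starts. ZSCAN12, a zinc finger gene, held 2 members at 16.1 and 16.4 kb, one of them 1 bp upstream of an annotated start. In each of these genes neighbouring starts of the same strand were listed as separate calls.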
